A study of Drosophila melanogaster with 4 samples.

Results

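Neural stem cells (NSCs, also called neuroblasts) and neurons of the larval *Drosophila* brain were compared within the same sorted cell suspensions at 24 h after larval hatching (24 h ALH). The study sequenced single cells of stage 17 embryos, when NSCs are quiescent, and of larval brains at 24 h ALH, which it labels reactivated. There are 2 biological replicate libraries per stage. The study's images also show quiescent NSCs in the abdominal nerve cord at 24 h ALH. All 4 libraries hold GFP+ cells that carry *wor*-GAL4 and UAS-mCD8-GFP. GAL4 under control of *wor*, a gene of NSCs, drives a membrane-bound GFP there, and GFP+ cells were isolated by flow cytometry from pooled, dissociated tissue. The 24 h libraries were both made with version 3 of the 10x Chromium 3′ chemistry. GFP protein persists in the progeny of an NSC, so that the sort is an enrichment of the lineage and not a pure preparation of NSCs, and the labels list NSCs, neurons and glia. Untreated animals of this 1 genotype make up every group, and no mutant or treated brain is involved.

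Cells were taken if they held 200 to 6000 genes and at most 5% of their unique molecular identifiers (UMIs, each standing for 1 captured RNA molecule) in mitochondrial genes. Of 1938 such cells at 24 h ALH, 612 were taken as stem cells because they held at least 2 UMIs of *dpn*, at least 1 of *wor* and none of *nSyb*. Another 542 were taken as neurons, with at least 2 UMIs of *nSyb* and none of *dpn* or *wor*. These 1154 cells are the ones compared, out of 3567 cells kept in the whole series. Library 1 gave 361 stem cells and 178 neurons, and library 2 gave 251 stem cells and 364 neurons. Raw UMIs were summed over each class in each library, and the 2 classes were compared with the library as the pair, since cells of 1 library are not replicates.

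An NSC divides asymmetrically: it renews itself and buds off a smaller daughter that divides once more or differentiates directly, and polarity proteins place fate determinants in that daughter. To do so at every cycle it copies its genome and regrows, which takes nucleotides, ribosomes and protein. A neuron has left the cell cycle, and its work rests on ion channels, on vesicles that release transmitter, and on receptors that read the transmitter of other cells.

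The 3 genes of the gate chose the cells, so their levels are a description only. Levels are given as CPM, UMIs per 1000000 of a sum's total after TMM scaling. *dpn*, a transcription factor of NSCs (2R, 8228971 to 8232330 in the BDGP6.54 annotation), had 177 and 182 CPM in stem cells of libraries 1 and 2, and *wor*, another (2L, 15423297 to 15425580), had 159 and 172 CPM. *nSyb*, the vesicle protein that drives fusion at the synapse (3L, 1630348 to 1637752), had 1506 and 1445 CPM in neurons. Each was at 0 in the other class because the gate demanded it. Where cells were chosen instead by *mira* and *Syt1*, *nSyb* came to 3.79 and 2.89 CPM on unscaled totals in stem cells, against 1749 and 1753 in neurons. Under that choice *dpn* came to 159 and 156 CPM in stem cells, against 4.66 and 3.16 in neurons.

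The edges of the gate were not empty, and they are given in CPM on unscaled totals. A further 91 and 40 cells met the stem cell limits but for a single UMI of *nSyb*. They had 5.79 and 7.89 CPM of *Syt1*, the calcium sensor of vesicle fusion. That is above the 2.91 and 1.66 of the stem cells taken, and far under the level in neurons. Another 88 and 36 cells had both the stem cell genes and at least 2 UMIs of *nSyb*, with 221 and 245 CPM of *Syt1*, between stem cells and the 1125 and 1096 of neurons. They entered neither class. Among stem cells, 23 and 20 were at the limit of 2 *dpn* UMIs, while 32 and 37 cells with 1 *dpn* UMI were left out. Those left out had 612 and 979 CPM of *elav*, a neuronal RNA-binding protein, against 308 and 441 at the limit and 87.5 and 131 in all stem cells. Among neurons, 6 and 17 cells were at the limit of 2 *nSyb* UMIs. These had 67.2 and 46.9 CPM of *Syt1*, far under the class as a whole, while 7 and 30 cells with 1 *nSyb* UMI were left out at 21.2 and 30.1.

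Markers that the gate did not use went with both labels. Of the stem cell markers, *klu*, *ase*, *mira* and *insc* were all higher in stem cells. Of the neuron markers, *elav*, *Syt1*, *brp*, *nrv3* and *cpx* were all higher in neurons. Markers of other cells were scarce. The 5 glial markers (*repo*, *moody*, *alrm*, *wrapper*, *Gs2*) summed to 0.362 and 0.0147 UMIs per 10000 in stem cells, against 1.28 and 0.379 in neurons. *repo*, the transcription factor that defines glia, was seen in 2 and 0 stem cells and in 5 and 4 neurons. The 4 muscle markers summed to 0.177 and 0.187 per 10000 in stem cells, against 1.22 and 2.17 in neurons. Tracheal and haemocyte markers were at 0.470 per 10000 or less in every sum, and *NimC1* of haemocytes was at 0 throughout.

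Stem cells held far more RNA than neurons of the same library. The median was 71744 and 63113 UMIs per stem cell, against 16237.5 and 10708 per neuron. The mean was 3.66 times higher in stem cells in library 1 and 4.59 times in library 2. Stem cells also showed more genes, 4875 and 4652 at the median, against 3038 and 2496.5 in neurons. The order turned once every cell was thinned to 3000 UMIs: 1072 and 1055 genes in stem cells, against 1236.5 and 1219.5 in neurons. Requiring *dpn* and *wor* UMIs favours deep cells, and how far the gate adds to the gap in depth was not tested. The mitochondrial share was alike, 1.86% and 1.78% in stem cells, against 1.63% and 1.69% in neurons. The sums held 26105456 and 15630058 UMIs in stem cells, against 3515503 and 4933461 in neurons. Of the barcodes in these classes, 4 and 1 in stem cells and 0 in neurons also occurred in a stage 17 library.

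**Figure D1:**
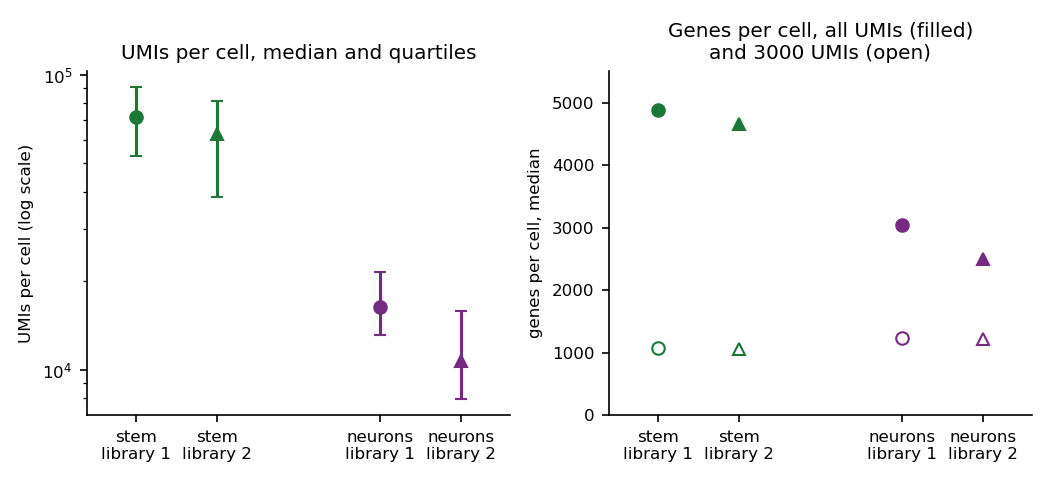
UMIs per cell (left, log scale, median with quartiles) and median genes per cell (right, with all UMIs as filled and with 3000 UMIs as open symbols) for stem cells (green) and neurons (purple) in each 24 h library. Stem cells had 71744 and 63113 UMIs at the median, against 16237.5 and 10708 in neurons, and fewer genes than neurons once depth was equal.

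Of 8065 genes tested, 5945 (73.7%) differed at a Benjamini-Hochberg adjusted p under 0.05 in the quasi-likelihood test of edgeR. There were 3133 genes higher in stem cells (38.8%) and 2812 higher in neurons (34.9%). At 2-fold or more the calls were 1966 genes for stem cells (24.4%) and 2164 for neurons (26.8%), and gene groups below are read against these shares. For 7212 genes (89.4%) the 2 classes did not overlap. Over all genes the log2 fold change of stem cells over neurons had a median of 0.08, and other scalings moved it to between -0.16 and 0.20, so that differences of this size carry no direction. Each class has 2 sums and the fit has 1 residual degree of freedom per gene. Only 3291 genes were called without library 1 and 2575 without library 2, when the spread came from the stage 17 sums. Of 158 genes named with a test, 32 and 33 then lost their call, nearly all with a log2 fold change within 2 of 0, and none turned.

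**Figure D2:**
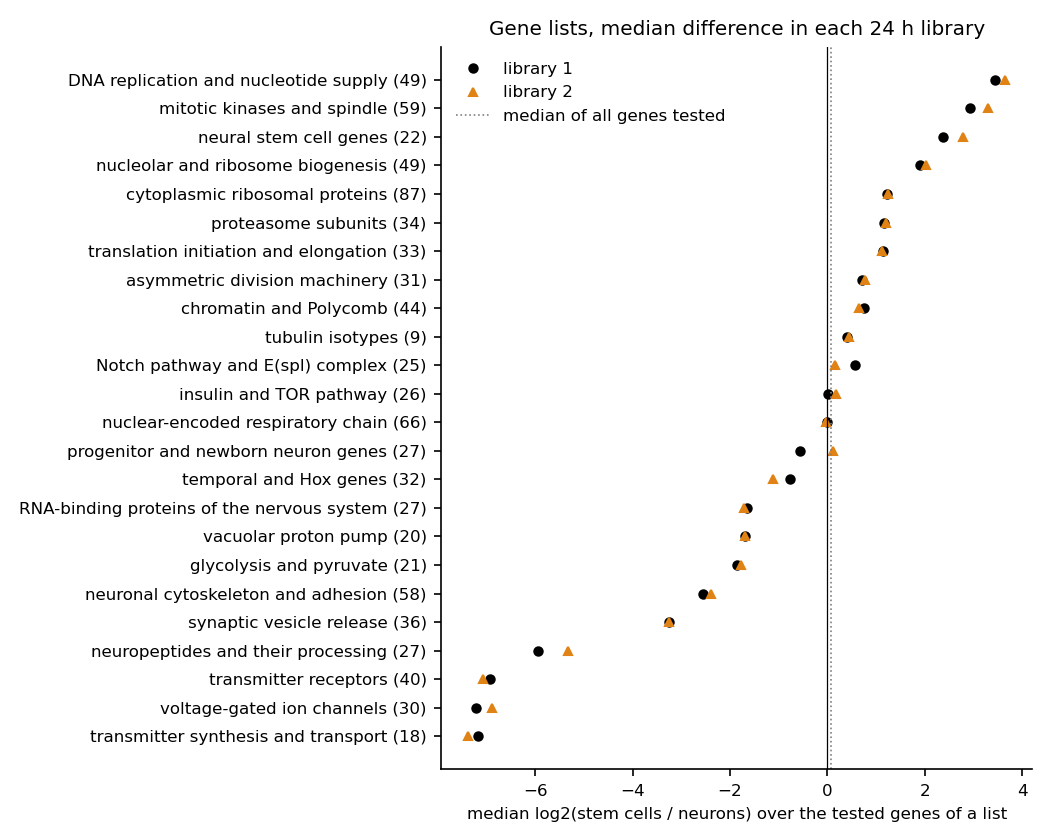
Median log2 ratio of stem cells over neurons across the tested genes of each list (number in brackets), in library 1 (circles) and library 2 (triangles), with the median of all genes as a dotted line. DNA replication stood highest, and transmitter synthesis, channels and receptors lowest, in both libraries.

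The genes with the largest difference towards stem cells, among those of at least 50 CPM in the higher class, included genes of replication and the cell cycle and several with no known name. *CG15047* had 79.4 and 70.8 CPM in stem cells, against 1.57 and 0.75 CPM in neurons, and *CG15646* had 154 and 149 CPM, against 2.35 and 2.24. Their log2 fold changes were 6.08 and 6.04 (standard errors 0.21 and 0.14), and the annotation used here gives *CG15047* and *CG15646* no further name. *Ts*, thymidylate synthase, followed at 5.53, *BthD*, a selenoprotein, at 5.49, *Cks30A*, a subunit of cyclin-dependent kinases, at 5.45, *Pen*, an importin alpha, at 5.41, and *CycE*, which starts S phase, at 5.33. *CG12708* (5.46), the ribosomal protein gene *RpS19b* (5.38), *edl* (5.29), *mira* (5.16) and *Claspin* (5.14), a gene of the replication checkpoint, completed the 12. The neurons of both libraries were below the stem cells by at least an order of magnitude for each of them.

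Towards neurons the 12 genes of largest difference included receptors, surface proteins and peptides. *DIP-zeta*, a surface protein of the immunoglobulin family, *AstC-R2*, a receptor for the peptide allatostatin C, and a further pair were hardly seen in stem cells, so that a ratio with its counting interval is given. *DIP-zeta* had 1 and 0 UMIs in stem cells, against 161 and 369 in neurons, a ratio of neurons over stem cells of 2216 (95% exact interval 396 to 87698). Only 8.43% and 9.34% of neurons held a UMI of *DIP-zeta* at full depth. *AstC-R2* had 1 and 1 UMIs in stem cells, against 346 and 378 in neurons, a ratio of 1514 (418 to 12523). The insulin-like peptide *Ilp7* had 2 and 0 UMIs in stem cells, against 75 and 662 in neurons, a ratio of 1541 (425 to 12747). Most of its neuron UMIs came from library 2. With all UMIs, *Ilp7* was seen in only 1.69% and 0.82% of neurons, so that its class level is that of a few cells. The interval does not cover the spread between those cells. *CG1688*, also with 2 and 0 UMIs in stem cells, stood at a ratio of 985 (271 to 8155). *Dop2R*, a dopamine receptor, had 0.21 and 0.28 CPM in stem cells, against 247 and 250 CPM in neurons (log2 fold change -9.98, standard error 0.14). *Octbeta1R*, an octopamine receptor (-9.73), *rad* (-9.64), *CG5890* (-10.03), *CG33543* (-9.94), *CG42313* (-9.89) and *CG34354* (-9.80) were of the same order, and *Pdf* (-10.14), a peptide, is described with the peptides. These counting intervals cover counting error only.

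Genes of NSC identity were high in stem cells. Of 22 tested, 15 were called at 2-fold or more in stem cells and 2 in neurons, with a median log2 fold change of 2.597. *klu*, a zinc-finger factor that keeps NSCs self-renewing (3L, 10981171 to 11009188), had 559 and 569 CPM in stem cells, against 19.9 and 13.4 CPM in neurons (log2 fold change 5.12, standard error 0.16, adjusted p = 4.89e-05 in edgeR). The stem cell values of *klu* were almost equal, and the neuron values were far below both. *grh*, a late temporal factor of NSCs, had 744 and 573 CPM in stem cells, against 23.5 and 21.2 CPM in neurons (4.86, standard error 0.09). *ase*, a proneural factor, had 123 and 124 CPM in stem cells, against 8.88 and 4.47 CPM in neurons (4.27). *SoxN*, a Sox factor, had 495 and 542 CPM in stem cells and kept 96.2 and 95.6 CPM in neurons (2.44), and *sna*, a relative of *wor*, stood at 2.53. On the other side, *scrt*, a neuronal zinc-finger gene of the same family as *sna*, had 21.6 and 22.1 CPM in stem cells, against 1049 and 1149 CPM in neurons (-5.64). *brat*, which the daughter cell uses to stop self-renewal, was also higher in neurons, though by less (-0.73, adjusted p = 3.65e-04, edgeR).

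Genes of asymmetric division were mixed. Of 31 genes tested, 13 were called at 2-fold or more in stem cells and 4 in neurons, with a median of 0.78. *mira*, the adaptor that carries fate determinants into the daughter, had 436 and 363 CPM in stem cells, against 12.02 and 10.2 CPM in neurons (log2 fold change 5.16, standard error 0.09). *insc*, which links polarity to the spindle, was at 3.45, *Galphai*, which anchors the spindle at the cortex, at 4.004, *polo*, a mitotic kinase, at 4.03, and *spdo*, a Notch pathway protein sorted at division, at 5.13. Other members were higher in neurons. *Gbeta13F*, a G protein subunit, had 1051 and 1021 CPM in stem cells, against 2252 and 2424 CPM in neurons (-1.17), and *dlg1*, a scaffold of cell junctions and synapses, stood at -1.90. *pros*, the determinant that *mira* carries, had 247 and 245 CPM in stem cells, against 430 and 852 CPM in neurons. The neuron sums of *pros* differed by almost as much as the classes did, and the difference was not called (-1.31, adjusted p = 0.0867, edgeR), though DESeq2 called it (-1.42, adjusted p = 2.31e-08). In edgeR it was also called with the gate on *mira* and *Syt1* (-1.14, adjusted p = 0.0167) and without doublets (-1.32, adjusted p = 0.0495).

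Every one of the 49 tested genes of DNA replication and nucleotide supply was called higher in stem cells, 47 of them (95.9%) at 2-fold or more, with a median of 3.69. *PCNA*, the sliding clamp of the polymerase, had 723 and 686 CPM in stem cells, against 29.5 and 18.6 CPM in neurons (4.91, standard error 0.16, adjusted p = 8.23e-05, edgeR). *dUTPase*, which keeps uracil out of DNA, had 1157 and 1155 CPM in stem cells, against 91.5 and 74.0 CPM in neurons (3.82). *Mcm10*, which helps to start replication, had 815 and 539 UMIs in stem cells, against 1 and 6 in neurons (5.59). *E2f1*, which turns on the S phase genes, differed least among those named, with 325 and 313 CPM in stem cells, against 225 and 222 CPM in neurons (0.51), and it was not called in cells thinned to 3000 UMIs (0.12).

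Mitotic genes followed closely. Of 59 tested, 51 (86.4%) were called at 2-fold or more in stem cells and 1 in neurons, with a median of 3.18. *Rcc1*, which loads Ran at chromatin, had 417 and 425 CPM in stem cells, against 46.3 and 42.1 CPM in neurons (3.26). *mei-38*, a spindle protein, stood at 5.15, *sub*, a kinesin of the central spindle, at 4.36, and *cid*, the centromeric histone, at 4.46. *stg*, the phosphatase that triggers entry into mitosis, had 226 and 176 CPM in stem cells, against 42.9 and 22.7 CPM in neurons (2.67). The exceptions were *fzr*, which keeps mitotic cyclins degraded in cells that have left the cycle, and *tacc*, a centrosome protein. *fzr* had 17.9 and 19.7 CPM in stem cells, against 56.7 and 56.6 CPM in neurons (-1.59), and *tacc* was at -0.90.

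Cell cycle genes were seen in more stem cells than neurons at equal depth, though single ones were not seen in every stem cell. After thinning to 3000 UMIs, at least 1 UMI of *PCNA* was found in 75.1% and 68.5% of stem cells, against 8.43% and 6.04% of neurons. *klu* was found in 73.1% and 72.9% of stem cells, against 7.30% and 4.95% of neurons, and *CycE* in 42.1% and 38.2% of stem cells, against 2.25% and 1.65% of neurons. *CycB*, a mitotic cyclin, was found in only 15.8% and 21.1% of stem cells, against 2.25% and 2.20% of neurons. At least 1 of *RnrS*, *RnrL*, *PCNA* and *CycE* was seen in 90.0% and 82.1% of stem cells and in 12.9% and 10.4% of neurons, and at least 1 of *CycB*, *CycA*, *stg* and *polo* in 69.0% and 70.5% of stem cells and in 14.6% and 6.87% of neurons. The neurons' shares hold whatever free RNA the droplets took up, and they are not read as cycling neurons.

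**Figure D3:**
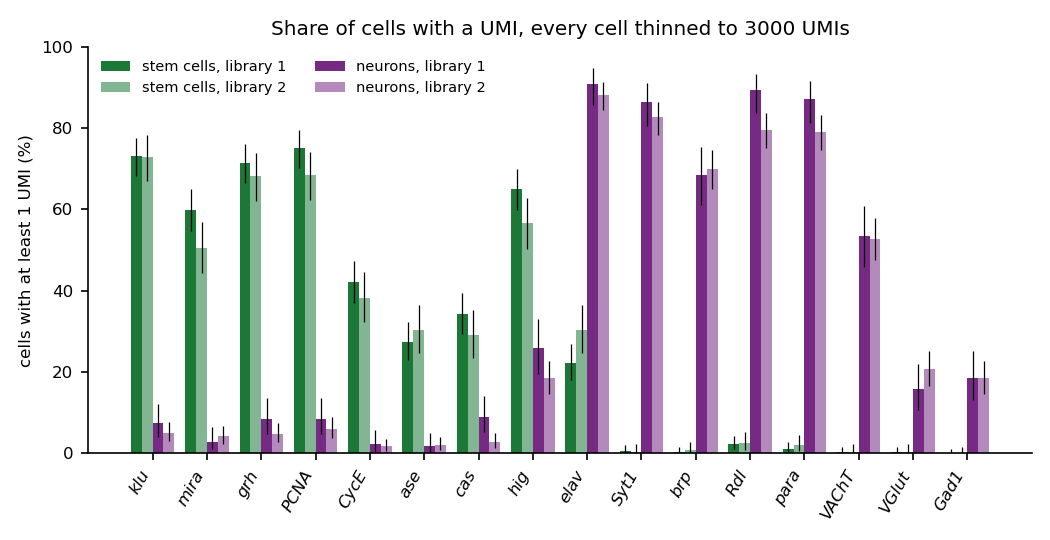
Percentage of cells with at least 1 UMI after thinning every cell to 3000 UMIs, for stem cells (green) and neurons (purple) of library 1 (full colour) and library 2 (pale), with exact 95% binomial intervals of counting error. *klu*, *mira*, *grh* and *PCNA* were seen in over 50% of stem cells, *Syt1* in 0.55% and 0.40% of stem cells, against 86.5% and 82.7% of neurons, and *elav* in both classes.

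Growth genes were high in stem cells as a block. Of 49 nucleolar and ribosome biogenesis genes, 45 (91.8%) were called at 2-fold or more in stem cells and 0 in neurons, with a median of 2.00. *Nlp*, a nucleoplasmin-like chaperone, had 2049 and 2226 CPM in stem cells, against 456 and 445 CPM in neurons (2.25). *Nph*, another chaperone of this kind, was at 2.39, *Nop60B*, which modifies ribosomal RNA, at 2.44, and *Nopp140*, a nucleolar scaffold, at 2.48. *Myc*, the growth regulator above these genes, differed less: 608 and 627 CPM in stem cells, against 368 and 359 CPM in neurons (0.76, adjusted p = 3.99e-04, edgeR). Of 87 cytoplasmic ribosomal protein genes, 81 (93.1%) were called at 2-fold or more in stem cells and 0 in neurons, with a median of 1.24. Together their RNAs made up 3905 and 3952 of every 10000 UMIs in stem cells, against 1940 and 2000 in neurons. In molecules, that is 28237 and 24609.9 UMIs per stem cell, against 3832 and 2711 per neuron.

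Single ribosomal protein genes moved by nearly the same amount, apart from minor copies. *RpLP1*, of the ribosomal stalk, had 8193 and 8702 CPM in stem cells, against 3045 and 3166 CPM in neurons (1.44, standard error 0.03). *RpL27A* was at 1.37 and *RpL41* at 1.35. *RpS19b* is a second copy of *RpS19a*, and it had 85.7 and 89.4 CPM in stem cells, against 3.14 and 1.30 CPM in neurons (5.38). *RpS19a*, named here after its values were seen, had 3367 and 4076 CPM in stem cells, against 1164 and 1457 CPM in neurons (1.51). *RpLP0-like*, which acts in ribosome assembly, was at 2.57 and *RpS15Ab* at 2.15. Values of near-identical copies, *RpS15Ab* and the tubulin, Gapdh and eEF1alpha genes below among them, are uncertain where the counting could not separate their reads.

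Translation factors and the proteasome went with the ribosome. Of 33 initiation and elongation factors, 20 (60.6%) were called at 2-fold or more in stem cells and 1 in neurons, with a median of 1.14. Of 34 proteasome subunits, 21 (61.8%) were called at 2-fold or more in stem cells and 0 in neurons (1.16). *eEF5*, which helps ribosomes past proline runs, had 3863 and 4116 CPM in stem cells, against 1280.2 and 1320 CPM in neurons (1.62), *eEF1delta* was at 2.38, and *pAbp*, which binds the poly(A) tail, at 0.98. *Prosalpha5*, of the core particle, had 427 and 475 CPM in stem cells, against 151 and 165 CPM in neurons (1.51). *Rpt3R*, a second copy of a proteasomal ATPase, had 966 and 556 UMIs in stem cells, against 5 and 2 in neurons (5.66). *eIF5* was the factor higher in neurons besides *eEF1alpha2*, at -0.83.

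Elongation factor 1 alpha is encoded by 2 genes that divided between the classes. *eEF1alpha1* (2R, 11891135 to 11895762) had 10926 and 10111 CPM in stem cells, against 4112 and 3576 CPM in neurons (1.45, standard error 0.03, adjusted p = 1.52e-05, edgeR). *eEF1alpha2* (3R, 31738468 to 31743306) had 1.78 and 1.90 CPM in stem cells, against 392 and 318 CPM in neurons (-7.62, standard error 0.13, adjusted p = 1.18e-05, edgeR). The second gene was barely seen in stem cells, with 43 and 27 UMIs, against 1500 and 1709 UMIs in neurons.

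RNA of glycolysis genes was mostly higher in neurons. Of 21 genes of glycolysis and pyruvate use, 0 were called at 2-fold or more in stem cells and 16 (76.2%) in neurons, with a median of -1.83. Their RNAs made up 48.1 and 46.1 of every 10000 UMIs in stem cells, against 268 and 242 in neurons. *Ald*, aldolase (3R, 26254069 to 26261591), had 169 and 173 CPM in stem cells, against 5898 and 5565 CPM in neurons (-5.07, standard error 0.05, adjusted p = 1.17e-05, edgeR). Although a stem cell holds several times more RNA, it had only 11.3 and 9.80 UMIs of *Ald*, against 127 and 82.1 in a neuron. *ImpL3*, lactate dehydrogenase, had 8.67 and 8.22 CPM in stem cells, against 1684 and 1391 CPM in neurons (-7.51), and *Hex-A*, hexokinase, was at -4.02. For *Eno*, *Gapdh1* and *Gapdh2* (-1.83, -1.62 and -1.61), which act in the lower part of glycolysis, the counts per cell were near each other: *Gapdh1* had 49.4 and 41.5 UMIs in a stem cell, against 51.7 and 31.1 in a neuron.

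The nuclear-encoded respiratory chain showed no such difference in RNA. Of 66 genes tested, 0 were called at 2-fold or more in stem cells and 1 in neurons, and the median was 0.00, which turned to -0.24 without scaling. The gene past 2-fold was *Cyt-c-p*, cytochrome c, with 709 and 734 CPM in stem cells, against 1510 and 1460 CPM in neurons (-1.04). *ATPsynC*, a subunit of the ATP synthase rotor, was at 0.49 and *ND-20*, of complex I, at 0.57, and in thinned cells neither was called (0.13 and 0.28). Insulin and TOR pathway genes, which drive reactivation in this tissue, were divided too: of 26 tested, 4 were called at 2-fold or more in stem cells and 3 in neurons, with a median of 0.15. *InR*, the insulin receptor, had 252 and 272 CPM in stem cells, against 213 and 234 CPM in neurons (0.23), its call was lost with RLE factors (0.10), and its direction turned without scaling (-0.02). *mnd*, an amino acid transporter, stood at 2.58, *foxo*, the factor that insulin signalling restrains, at 1.40, and *Thor*, the 4E-binding protein, at 0.46. *Pdk1*, a kinase of the pathway, at -1.41, and *eIF4EHP*, a cap-binding repressor, at -2.41, were higher in neurons.

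Synaptic and channel genes were higher in neurons throughout, channels by more than release genes. Of 36 genes of vesicle release tested, 0 were called at 2-fold or more in stem cells and 34 (94.4%) in neurons, with a median of -3.25. Of 30 voltage-gated channel genes, 0 were called so in stem cells and 29 (96.7%) in neurons (-7.55). *Syt1* (2L, 2772327 to 2799979) had 3.14 and 1.83 CPM in stem cells, against 1033 and 1007 CPM in neurons (-8.62, standard error 0.17, adjusted p = 2.57e-05, edgeR). *cpx*, complexin, a clamp on fusion, had 5.91 and 3.93 CPM in stem cells, against 2261 and 2172 CPM in neurons (-8.78). *brp*, the scaffold of the active zone, was at -7.66 and *Frq1*, a calcium-binding regulator of release, at -8.87. Among channels, *Sh*, a potassium channel, had 2.89 and 2.67 CPM in stem cells, against 1643 and 1566 CPM in neurons (-9.16). *para*, the sodium channel of the action potential, had 4.13 and 5.62 CPM in stem cells, against 1380.2 and 1285 CPM in neurons (-8.13), and *slo* (-9.23), *Ih* (-8.62) and *SK* (-9.08) lay in the same range.

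Some genes listed for release were expressed in stem cells as well. *Sap47*, a synapse-associated protein, had 217 and 202 CPM in stem cells, against 1928 and 1815 CPM in neurons (-3.16). *Syx1A*, a membrane fusion protein that also serves cytokinesis, had 157 and 168 CPM in stem cells, against 1053 and 1117 CPM in neurons (-2.74), and *unc-13*, a priming factor, had 157 and 141 CPM in stem cells, against 1095 and 1054 CPM in neurons (-2.85). Of 96 genes of the release, channel, receptor and transmitter lists called at 2-fold or more in neurons with at least 50 CPM there, 66 in library 1 and 64 in library 2 had a stem cell level under 1% of the neuron level, and 16 in each library were at 10% or more. Of these 16, 14 were among the 32 release genes, and their stem cell level was 4.89% and 5.44% of the neuron level at the median over the 32. The same median was 0.416% and 0.475% for 24 channel genes, 0.410% and 0.307% for 29 genes of the receptor list and 0.399% and 0.297% for 11 transmitter genes. These genes were chosen as higher in neurons, and the stem cells as free of *nSyb* UMIs. A lower stem cell level is thus partly set by the choice, and these shares are a description only. Whether the values under 1% are free RNA in the droplets was not tested.

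RNA of stem cell genes was also counted in neurons. Of 74 genes of the stem cell, replication and mitosis lists with at least 50 CPM in stem cells and called there at 2-fold or more, 0 were under 1% in neurons. Their neuron level was 9.38% and 6.71% of the stem cell level at the median, and 35 and 24 genes were at 10% or more. These genes were in turn chosen as higher in stem cells, and the neurons as free of *dpn* and *wor* UMIs. Stem cells held most of the UMIs of the 2 classes, and how much of these neuron levels is free RNA was not tested.

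Genes of the receptor list were neuronal with 1 exception, which is not itself a receptor. Of 40 genes of this list tested, 1 was called at 2-fold or more in stem cells and 39 (97.5%) in neurons, with a median of -7.55. *Rdl*, the GABA-A receptor subunit (3L, 9145838 to 9182149), had 4.46 and 3.93 CPM in stem cells, against 2742 and 2430.2 CPM in neurons (-9.26, standard error 0.06, adjusted p = 1.04e-05, edgeR). *nAChRalpha6*, a nicotinic acetylcholine receptor subunit, stood at -9.16, *nAChRalpha1* at -6.22, *mAChR-A*, a muscarinic receptor, at -9.43, and *GluRIB*, a glutamate receptor, at -9.56. *nAChRalpha5* was the subunit with the most RNA in stem cells, 73.2 and 68.5 CPM, against 952 and 1017 CPM in neurons (-3.79). *hig*, a secreted protein of cholinergic synapses (2R, 9227785 to 9247249), was the exception. It had 611 and 416 CPM in stem cells, against 114 and 92.4 CPM in neurons (2.30, standard error 0.09, adjusted p = 5.45e-05, edgeR), and it was seen in 65.1% and 56.6% of thinned stem cells, against 25.8% and 18.4% of neurons. Its partner *Hasp*, also secreted at such synapses, had 8.10 and 7.73 CPM in stem cells, against 238 and 216 CPM in neurons (-4.84).

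Transmitter genes named the kinds of neuron present. Of 18 tested, 1 was called at 2-fold or more in stem cells and 17 (94.4%) in neurons, with a median of -7.91. *VAChT*, which loads acetylcholine into vesicles, had 1.28 and 1.12 CPM in stem cells, against 401 and 424 CPM in neurons (-8.38). *VGlut*, which loads glutamate, had 0.87 and 1.41 CPM in stem cells, against 277 and 532 CPM in neurons (-8.43). *Gad1*, which makes GABA, had 1.07 and 1.41 CPM in stem cells, against 288 and 276 CPM in neurons (-7.86). *Vmat*, which loads monoamines, was at -8.52. The gene higher in stem cells was *Eaat1*, a transporter that takes glutamate up, at 122 and 110 CPM in stem cells, against 11.5 and 6.52 CPM in neurons (3.73, adjusted p = 1.38e-04, edgeR). *Eaat1* is also known from glia. The 5 glial markers summed to 0.362 and 0.0147 per 10000 UMIs in stem cells and the longer glial list, which holds *Eaat1* itself, to 4.70 and 3.97, and their part in this value was not tested.

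At 3000 UMIs per cell, genes of acetylcholine, glutamate and GABA were absent from 99.4% and 98.4% of stem cells, against 11.2% and 11.5% of neurons. Cholinergic genes alone were seen in 0.28% and 1.20% of stem cells, against 49.4% and 43.7% of neurons, and *VGlut* alone in 0.28% and 0.40%, against 10.1% and 14.01%. Genes of GABA alone were seen in 0 of 361 and 0 of 251 stem cells, so that counting allows up to 0.831% and 1.20% of cells with a UMI at this depth, against 14.6% and 15.9% of neurons. With all UMIs, *Gad1* was seen in 6.65% and 7.57% of stem cells, against 21.9% and 23.6% of neurons, so that the counts of 0 do not carry over to the full depth. More than 1 of the 3 classes was seen in 0% of stem cells of both libraries, against 14.6% and 14.8% of neurons. Whether the UMIs in stem cells are free RNA was not tested. The neurons of the 2 libraries differed by less than 6 percentage points in each class.

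Most peptide genes were higher in neurons, and several varied between libraries. Of 27 tested, 1 was called at 2-fold or more in stem cells and 22 (81.5%) in neurons, with a median of -5.70. *Pdf*, the peptide of clock neurons, had 41 and 0 UMIs in stem cells, against 6704 and 1290 UMIs in neurons. That is 1752 and 240 CPM in neurons, but 3 neurons held 6700 of the UMIs in library 1 and 3 held 1289 in library 2, so that the class level of *Pdf* is that of a few cells. *Dh31*, a diuretic hormone, had 0.66 and 0.49 CPM in stem cells, against 438 and 262 CPM in neurons (-9.25), *Proc*, proctolin, was at -9.01, and *sNPF*, a feeding peptide, at -9.45. All 3 were higher in neurons of library 1 than of library 2. With all UMIs, *Dh31* was seen in only 16.9% and 9.62% of neurons and *Proc* in 19.1% and 20.3%.

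**Figure D4:**
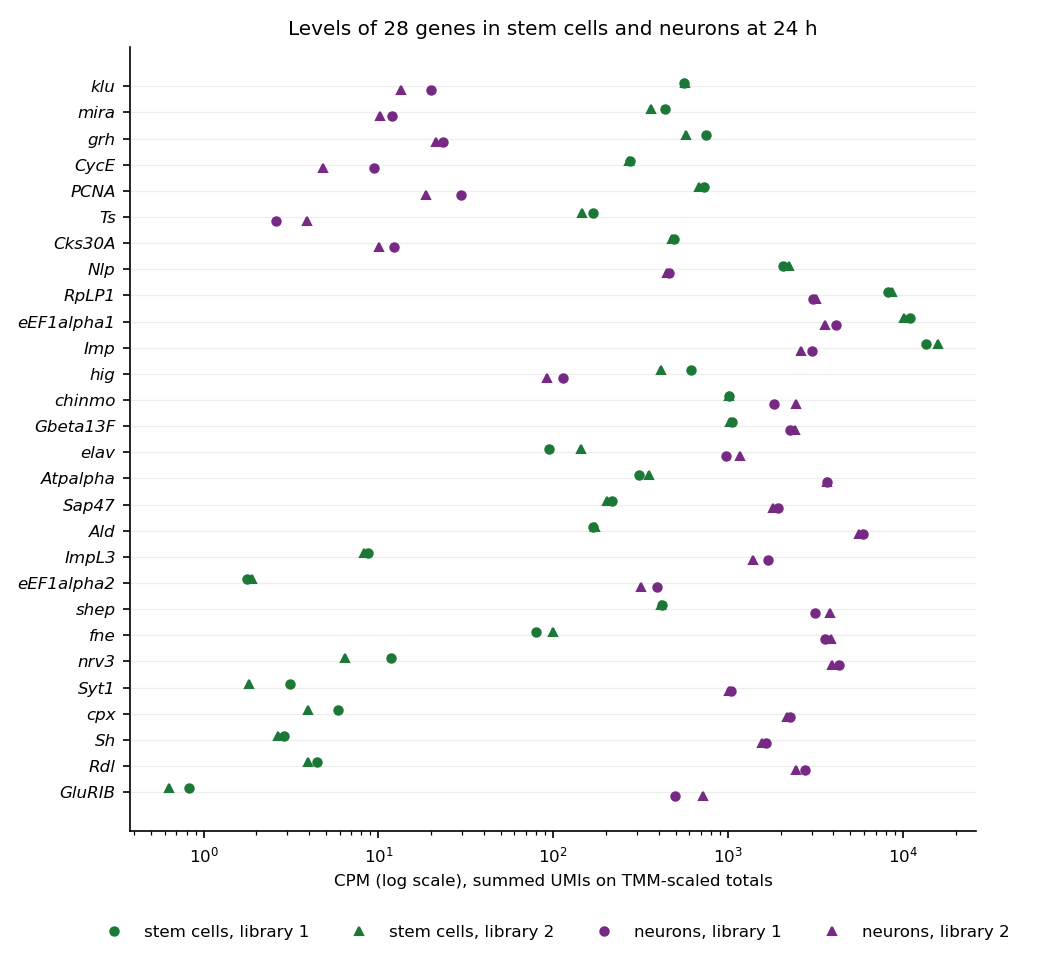
Levels of 28 genes in CPM (log scale) in stem cells (green) and neurons (purple), with library 1 as circles and library 2 as triangles. *klu* had 559 and 569 CPM in stem cells, against 19.9 and 13.4 in neurons, *Rdl* 4.46 and 3.93 CPM in stem cells, against 2742 and 2430.2 in neurons, and *elav*, *Atpalpha* and *Sap47* were clearly present in both.

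RNA-binding proteins of the nervous system leaned to neurons. Of 27 tested, 3 were called at 2-fold or more in stem cells and 18 (66.7%) in neurons, with a median of -1.69. *fne*, a relative of *elav*, had 79.6 and 99.4 CPM in stem cells, against 3579 and 3864 CPM in neurons (-5.39), *shep* was at -3.06, *bol* at -8.55 and *Rbp6*, a relative of *msi*, at -8.34. *elav*, the usual protein marker of neurons, had 94.4 and 144 CPM in stem cells, against 966 and 1173 CPM in neurons (-3.19). This stem cell level is 9.77% and 12.3% of that in neurons, far over the share of *Syt1* at below 1%, and *elav* was seen in 22.2% and 30.3% of thinned stem cells. *Imp* (X, 10787869 to 10824277), which marks the early temporal window of NSCs, had 13530.3 and 15814 CPM in stem cells, against 3022 and 2593 CPM in neurons (2.39, standard error 0.17, adjusted p = 0.00834, edgeR). These are 907 and 897 UMIs per stem cell, against 65.0 and 38.2 per neuron. *Syp*, its counterpart of the late window, had 71.2 and 184 CPM in stem cells, against 15.4 and 10.6 CPM in neurons. The stem cell sums of *Syp* differed from each other, and the call is marginal (3.22, adjusted p = 0.0498, edgeR). *msi*, a translational repressor, was at 1.28.

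Cytoskeleton and adhesion genes, fixed as a neuronal list, were called at 2-fold or more in stem cells in 3 of 58 and in neurons in 41 (70.7%), with a median of -2.42. *nrv3*, the neuronal beta subunit of the sodium pump, had 11.7 and 6.46 CPM in stem cells, against 4292 and 3950 CPM in neurons (-8.81). Its alpha subunit *Atpalpha* had 307 and 355 CPM in stem cells, against 3670.3 and 3694 CPM in neurons (-3.48). *Nlg3*, a neuroligin, was at -9.40, while *Nlg1*, with 105 and 54 UMIs in stem cells, against 2 and 4 in neurons, was at 2.63, and *Lac*, of septate junctions, at 2.13. The call of *Nlg1* was lost in DESeq2 (adjusted p = 0.117) and, in edgeR, without library 1 (adjusted p = 0.0542). Among 9 tubulins, 3 were called at 2-fold or more in stem cells and 2 in neurons. *alphaTub84B* (0.37, and 0.06 and not called in thinned cells) and *betaTub56D* (0.60), the abundant ones, differed little, and *gammaTub23C* of the centrosome was at 1.52. *betaTub60D* had 45.7 and 42.7 CPM in stem cells, against 4.18 and 0.93 CPM in neurons (4.25).

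The vacuolar proton pump, which acidifies vesicles, had 20 genes tested, of which 1 was called at 2-fold or more in stem cells and 16 (80.0%) in neurons (median -1.70). *Vha16-1* had 442 and 472 CPM in stem cells, against 1449 and 1595 CPM in neurons (-1.74), and *VhaM9.7-a* was at -5.42. The catalytic subunit again showed 2 copies in opposite classes. *Vha68-1* had 4.21 and 3.51 CPM in stem cells, against 242 and 206 CPM in neurons (-5.85), and *Vha68-2* had 57.5 and 48.8 CPM in stem cells, against 30.8 and 20.1 CPM in neurons (1.08).

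Temporal and Hox genes, which give NSCs and neurons their age and position, were divided. Of 32 tested, 11 were called at 2-fold or more in stem cells and 14 in neurons, with a median of -0.92. *cas*, a temporal factor, had 354 and 276 CPM in stem cells, against 28.5 and 6.34 CPM in neurons (4.34, adjusted p = 0.0244, edgeR), and *lin-28*, an RNA-binding factor of early stages, was at 4.36. *chinmo*, which marks early-born neurons and young NSCs, had 1011 and 1016 CPM in stem cells, against 1838 and 2456 CPM in neurons (-1.07). *br*, an ecdysone response gene, had 5.62 and 6.89 CPM in stem cells, against 530 and 644 CPM in neurons (-6.55). The Hox genes of the abdomen were neuronal: *Abd-B* at -9.18 (4 and 1 UMIs in stem cells, against 361 and 318 in neurons) and *abd-A* at -6.17. *Antp* and *Ubx* of the thorax, named after their values were seen, differed between the stem cell sums. *Antp* had 111 and 48.8 CPM in stem cells, against 135 and 225 CPM in neurons, and *Ubx* had 10.8 and 4.01 CPM, against 192 and 177. At least 1 of the 4 was seen in 22.4% and 6.77% of thinned stem cells, against 35.4% and 36.0% of neurons. The counting intervals of these shares did not overlap between the stem cells of the 2 libraries (18.2% to 27.1% and 3.99% to 10.6%), and they did in neurons.

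Notch signalling, which keeps an NSC from differentiating, was divided between 8 genes called at 2-fold or more in stem cells and 5 in neurons of 25 tested, with a median of 0.23 that turned to -0.02 without scaling. *N*, the receptor, had 382 and 435 CPM in stem cells, against 19.6 and 16.4 CPM in neurons (4.52), and its ligand *Dl* was at 3.77. *E(spl)mgamma-HLH*, a Notch target of NSCs, had 266 and 337 CPM in stem cells, against 7.06 and 20.5 CPM in neurons (4.44). Other members of the same complex had higher summed levels in neurons. *E(spl)m6-BFM* had 8.26 and 13.3 CPM in stem cells, against 514 and 1341 CPM in neurons (-6.31), *E(spl)m7-HLH* was at -2.31, and *Hey*, a Notch target of newborn neurons, at -3.98. In thinned cells *E(spl)m6-BFM* was seen in 10.7% and 21.4% of neurons, against 0.55% and 1.99% of stem cells. *E(spl)m7-HLH* was seen there in 7.30% and 9.62% of neurons, against 5.54% and 9.96% of stem cells. With all UMIs it was seen in 11.2% and 12.9% of neurons, against 21.6% and 31.5% of stem cells. The neuron levels of both genes are thus those of a minority of neurons. Of 27 progenitor and newborn neuron genes, 6 were called at 2-fold or more in stem cells and 10 in neurons (median -0.21). *ab*, a factor of neurons, had 1.12 CPM in stem cells of both libraries, against 218 and 156 CPM in neurons (-7.41).

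Chromatin genes leaned to stem cells, with 17 of 44 (38.6%) called there at 2-fold or more and 2 in neurons, and a median of 0.71. *HmgD*, a chromatin protein of dividing cells, had 2809 and 3067 CPM in stem cells, against 799 and 913 CPM in neurons (1.78), *Nap1*, a histone chaperone, was at 2.61 and *esc*, of the Polycomb group, at 3.12. *His3.3A* and *His3.3B* encode the replacement histone H3.3, and they differed in direction, at 1.64 and -0.35. *Su(z)2*, a Polycomb group gene, was at -3.85. Heat shock and dissociation genes, a sign of handling, were called at 2-fold or more in 2 of 21 in stem cells and 8 in neurons (median -0.35). The chaperones *Hsc70-4* (1.89) and *Hsp83* (1.13) were higher in stem cells, and *sr* (-8.91) and *Hr38* (-8.88), which neurons switch on with activity, were higher in neurons. *sr* had 0.37 and 0.49 CPM in stem cells, against 182 and 243 CPM in neurons.

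Lists of other cell types held few UMIs. At 2-fold or more, 3 of 18 glial genes were called in stem cells and 10 in neurons, 2 of 12 genes of trachea and epidermis in stem cells and 6 in neurons, and 0 of 17 muscle genes in stem cells and 14 in neurons. Of 8 genes of haemocytes and fat body, 0 were called in stem cells and 5 in neurons. The muscle list came to 3.17 and 3.01 UMIs per 10000 in stem cells, against 11.0 and 14.5 in neurons, and the glial list to 4.70 and 3.97 in stem cells, against 5.62 and 4.67 in neurons. The list of trachea and epidermis went the other way, with 7.58 and 6.01 in stem cells, against 1.10 and 3.16 in neurons. That list holds *grh* and *sna*, given above as genes of NSCs, and *grh* had the highest level of its genes. Its stem cell sum is therefore not a measure of tracheal or epidermal RNA. In thinned cells, where fewer genes could be tested, the median log2 fold change of the glial list turned to 1.86, against -2.39 with all UMIs, and that of trachea and epidermis to 1.56, against -2.81. The part of RNA from other cell types in the values of either class was not tested. Without cells with a *repo* UMI, 5840 of 7962 genes were called. Of 13 mitochondrially encoded genes, 0 were called at 2-fold or more in either class (median 0.34).

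Genes high in neurons were long. The median span in the annotation was 2156 bp for genes called at 2-fold or more in stem cells and 8060 bp for those called in neurons, beside 3049 bp for all genes tested. Of the genes that span over 50 kb, 4.63% were called in stem cells and 75.1% in neurons. Between 1 and 2 kb the order turned, with 36.1% called in stem cells and 10.8% in neurons.

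**Figure D5:**
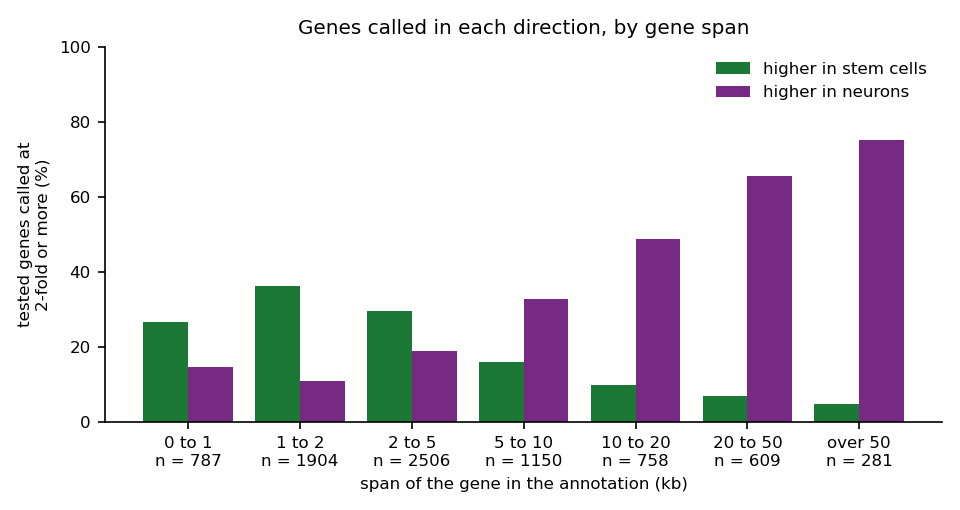
Percentage of tested genes called at 2-fold or more higher in stem cells (green) or in neurons (purple), by the gene's span in the annotation in kb. Over 50 kb 4.63% were called in stem cells and 75.1% in neurons, and between 1 and 2 kb 36.1% and 10.8%.

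The same gate could hardly be applied at stage 17. It found 11 and 2 stem cells, with 56282 and 23500 UMIs in all, and 241 and 979 neurons. Another 15 and 26 cells met the limits for *dpn* and *wor* but had at least 2 UMIs of *nSyb*, and 2 and 1 had a single UMI. The gate thus left out most cells with the stem cell genes at stage 17, and those taken are the ones without *nSyb*. The difference between classes was tested against that at stage 17 as an interaction, and 171 of 8130 genes (2.1%) were called in edgeR. Fewer stem cells and less RNA per cell at that stage leave this test with few counts, and it gave 22 genes with another scaling and 15 without library 1 of 24 h ALH.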

How the data were processed

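The deposited counts are integer UMI totals for every gene in every cell that the authors' Cell Ranger run called, and the submitters' processing notes name version 3 and the build dm6. The file headers and the study's methods name different versions of Cell Ranger, and the gene annotation is not given in the sources used here. No normalization had been applied. The cell filters are those of the study's methods. The members, the 30 gene lists and the tests were chosen with earlier results of these data known. Genes were named as the 12 of largest change in each direction with at least 50 CPM, the 4 highest and up to 4 most changed of each list, markers, and genes the study names.

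Sums per library and class were fitted in edgeR 4.0.16 (R 4.3.3) with TMM factors, filterByExpr, the library as a block and the robust quasi-likelihood test. The gate genes stayed out of the tests. Both classes come from the same suspension and library, which is where the pairing comes from. DESeq2 1.42.0, other scalings, gates and filters, and each library left out were tried. Doublets were called in the 24 h libraries with Scrublet in scanpy 1.11.5 and kept. They held 0 stem cells and 3 neurons. On simulated data for this comparison (8380 genes), 63 of 98 genes changed by 1 on the log2 scale were recovered. Of those changed by 2, 92 of 98 were recovered, and there were 10 false calls. All other genes were simulated at equal levels in the 2 classes, whereas 73.7% of genes were called in the data. The simulation therefore does not show how the scaling and the calls behave with so many differences. Thinning drew 3000 UMIs per cell, which left out 0 cells. Coordinates are those of the BDGP6.54 annotation, which 99.1% of tested genes matched. Counting intervals cover counting error only. No sequences were analysed here.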

Additional observations from a re-analysis of the deposited data

Results flagged for a closer look

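The difference between stem cells and neurons at 24 h ALH differed from that at stage 17 for 15 of the genes named. The test was the interaction of class and stage in edgeR (adjusted p under 0.05). Over all genes, 171 of 8130 (2.1%) were called, and that count was not stable under other processing, as given below. The genes named include 158 with a test between the classes, and many were picked by their level or change at 24 h ALH. Each value below is the log2 ratio of stem cells over neurons at 24 h ALH minus that at stage 17. The stem cell sums at stage 17 held 13 cells, all without a UMI of *nSyb*, and between 2 and 394 UMIs of each of these genes. How far the gate and this low count set the values was not tested.

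Lower values at 24 h ALH, relative to stage 17, were found for *E(spl)m7-HLH* (-6.83), *ab* (-6.36), *Hey* (-5.27), *Syt1* (-3.66) and *sna* (-3.07). In the stem cells of stage 17 *ab* rested on 14 UMIs, *Syt1* on 7 and *Hey* on 3.

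Higher values were found for *Eaat1* (5.91), *Gapdh1* (5.28), *Gapdh2* (4.27), *Eno* (3.74), *Imp* (2.77), *Lac* (2.75), *ATPsynC* (2.71), *msi* (2.25), *Hsp83* (2.05) and *pAbp* (1.47). *Imp* had 394 UMIs in the stem cells of stage 17, *pAbp* 183 and *sna* 133, the most of the 15, while *Eaat1* and *Gapdh1* had 2 each. At an unadjusted p under 0.05 the interaction held for 1466 of 8130 genes.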

How the results depend on the processing

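The number of genes called between stem cells and neurons stayed within 1.5 times of 5945 under every alternative except leaving out a library, which gave 2575 to 3291. It was 4395 in DESeq2, 3990 of 6131 in cells thinned to 3000 UMIs, and between 5404 and 6152 otherwise. The share of calls higher in stem cells was 52.7%, and it ran from 36.0% without library 1 to 56.1% with upper-quartile scaling, with 44.6% without scaling. Without the replicate block, that is without pairing the classes by library, 6005 genes were called. *pros* was then called (adjusted p = 0.0406), and *E(spl)m7-HLH* (0.066) and *InR* (0.065) were not. The interaction of class and stage, with 171 genes, was not stable: 22 with RLE factors, 4 in cells thinned to 1000 UMIs, 16 without the replicate block, and 15 to 222 with a library left out. Of single values, *InR* turned without scaling (-0.017), as did the median of the insulin and TOR list (-0.0939). The medians of the Notch and respiratory chain lists also turned there, as given above. Of the 5945 calls, 17 changed sign without scaling and 124 in cells thinned to 3000 UMIs. Calls in the opposite direction numbered 1 and 0 under these 2 settings. The medians of the glial (1.86) and tracheal (1.56) lists turned after thinning, where fewer of their genes could be tested. Where 1 library was left out, 32 and 33 of the 158 genes named lost their call, 29 of them in both cases. The 36 genes concerned had small differences, 33 of them under 2 on the log2 scale. *Syp* lost its call under 7 other alternatives (adjusted p up to 0.193). The causes were not tested. Depth limits levels that rest on few UMIs, such as *Mcm10* in neurons (1 and 6) and *DIP-zeta* in stem cells (1 and 0).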
